A study of Homo sapiens with 8 samples.

Results

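Catalase and 9 further genes for enzymes that remove peroxides were followed in the established human embryonic stem cell line H9, with EXT1 intact or knocked out. The members were the rows of the deposited gene table with the symbols CAT, GPX1, GPX4, GPX8 and PRDX1 to PRDX6, and all 10 were among its 15811 genes. CAT was picked because it is near zero in the EXT1-/- libraries, so its values are given as a description with no test. The other 9 genes (3 glutathione peroxidases and 6 peroxiredoxins) are listed with it as the other scavengers. Total RNA was sequenced from 4 wild-type (WT) and 4 EXT1-/- libraries, both taken 28 h after the medium was changed to RPMI-1640 with 6 µM CHIR-99021, an inhibitor of the kinase GSK3 that activates β-catenin and starts mesendoderm formation. EXT1 encodes a polymerase of heparan sulfate, a sugar chain of cell-surface proteins, and the EXT1-/- cells were made with CRISPR/Cas9 and are described as lacking this chain. The genotype is represented by 1 knockout line, and no uninduced library was analysed here. The labels do not say whether replicates came from different cultures. The p-values below therefore measure only the variation among these libraries, part of which may be technical.

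Hydrogen peroxide is made by oxidases, by superoxide dismutases and in the oxidation of fatty acids in peroxisomes. Catalase, a heme enzyme of peroxisomes, splits it into water and oxygen without an electron donor. Most glutathione peroxidases draw electrons from glutathione, and peroxiredoxins draw them mostly from thioredoxin, so these depend on the reductases that recharge the donors. The families are spread over the cell: PRDX1, PRDX2 and PRDX6 act mainly in the cytosol, PRDX3 in mitochondria, PRDX4 and GPX8 in the endoplasmic reticulum, and PRDX5 in several compartments.

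The stretch of DNA before the start of CAT is shown because CAT is the member whose transcript nearly disappeared, together with the same stretch of 2 of the genes whose pattern over the libraries was nearest to it (described further on). The 250 bases upstream of each start, from RefSeq (GRCh38.p14), run 5′ to 3′ on the strand of the gene, at chr11:34438684-34438933 (plus strand) for CAT, chr9:83956743-83956992 (minus strand) for C9orf64, which RefSeq lists as QNG1, and chr12:43758701-43758950 (plus strand) for IRAK4. Capitals mark matches to CCAAT and to GGGCGG on either strand.
CAT: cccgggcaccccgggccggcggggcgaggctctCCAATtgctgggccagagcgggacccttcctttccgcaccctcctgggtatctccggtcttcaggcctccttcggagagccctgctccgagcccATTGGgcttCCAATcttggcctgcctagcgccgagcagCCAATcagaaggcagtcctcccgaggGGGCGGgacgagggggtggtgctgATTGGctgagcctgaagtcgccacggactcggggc
C9orf64: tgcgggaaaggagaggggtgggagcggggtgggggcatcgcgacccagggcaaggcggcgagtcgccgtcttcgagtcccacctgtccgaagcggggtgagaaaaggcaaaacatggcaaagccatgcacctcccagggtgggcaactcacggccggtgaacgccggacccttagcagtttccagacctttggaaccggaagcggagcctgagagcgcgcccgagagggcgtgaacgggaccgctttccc
IRAK4: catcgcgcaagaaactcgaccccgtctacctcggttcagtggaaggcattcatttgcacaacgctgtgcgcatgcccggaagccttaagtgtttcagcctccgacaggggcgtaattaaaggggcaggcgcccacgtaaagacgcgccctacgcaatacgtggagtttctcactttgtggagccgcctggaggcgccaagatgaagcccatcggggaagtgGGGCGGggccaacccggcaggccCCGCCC
The CAT window held 5 matches to the CCAAT motif and 1 to the GC box, the GGGCGG of the capitals. A match to the first was present in 32.0% and to the second in 42.6% of all 35116 windows of this length, but 5 or more of them in only 112 windows (0.319%). The CCAAT motif was also found in windows of GPX4 (2 and 3 matches in 2 of its 3 windows) and ZNF717 (1 match in 1 of 2), which are not printed. Neither of the other printed windows held it, and the GC box matched 2 times in that of IRAK4 and 0 times in that of C9orf64. The CAT window contained 18 CpG dinucleotides and 68.8% G or C, against medians of 11 and 58% over all windows, and C9orf64 and IRAK4 held 23 and 22 CpG. Windows were found for 8 of the 10 members. A match is a description of the letters and not a measured binding site, and DNA methylation was not measured here.

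Before the members are compared, a feature of the libraries has to be given. Normalised read counts summed to between 37737058 and 40017763 per library. Mitochondrially encoded transcripts took 9.18 to 10.67% of the counts in 3 libraries (WT replicate 1 and EXT1-/- replicates 1 and 4, called the high set) and 5.30 to 5.43% in the other 5 (3 WT and 2 EXT1-/-, the low set). The labels name no such batch, and the high set holds 1 WT library. EXT1 itself read 1464 to 1776 in WT and 890 to 980 in EXT1-/- libraries, lower but still transcribed, and the table does not show the edited site. The mesendoderm genes TBXT, MIXL1, EOMES and GSC summed to 27021 to 30702 in WT and 9472 to 15005 in EXT1-/- libraries. Of 4 pluripotency markers (POU5F1, NANOG, SOX2, LIN28A) all were present, summing to 131556 to 134594 in WT and 107826 to 120932 in EXT1-/- libraries. They did not move as one: POU5F1 and NANOG were lower (log2 fold change -0.86 and -0.94, limma, adjusted p 7.63e-06 and 1.74e-05), SOX2 was higher (0.94, adjusted p 0.00815) and LIN28A did not pass (0.08, adjusted p 0.220). No marker of hepatocytes or red cells, which are rich in catalase, is among the genes of the table (0 of 5). From the lists for other cells, NES was the single neuroectoderm gene of 3 in the table, at 8524 to 9537 in WT and 10831 to 11516 in EXT1-/- libraries. COL1A1 and THY1, 2 of the 3 fibroblast genes, summed to 2944 to 3933 and 1653 to 2306. The part of these differences in the results below was not tested.

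CAT (ENSG00000121691, chromosome 11, 34438925 to 34472062, plus strand of GRCh38) was a low transcript in WT cells and close to absent in EXT1-/- cells. Normalised counts of 123, 118, 139 and 136 were recorded for WT replicates 1 to 4, and 1 in each of the 4 EXT1-/- libraries. The groups were far apart, and neither library set stood out among them. WT cells had a mean of 129.0 ± 10.1 (SD, n = 4). That is 3.32 CPM (1 CPM being 38.9 normalised counts), a level above that of 21.1% of the genes in the table. The sums were 516 and 4, a ratio of 129 with a 95% exact binomial (Clopper-Pearson) interval of 50.1 to 475, so 0.775% of the WT level was left (interval 0.210 to 2.00%). These intervals treat normalised values as counts and cover counting error only. Within the high set CAT read 123 against 1 and 1, and within the low set 118, 139 and 136 against 1 and 1. No annotated gene of GENCODE 29 overlaps CAT, and none of its pseudogenes is named there. Among the other members pseudogenes are named for GPX1 (2), PRDX1 (1), PRDX2 (4), PRDX3 (4) and PRDX4 (1), none of them in the table. GPX1 itself is typed there as a polymorphic pseudogene. Reads that these members may share with pseudogenes were not examined. In bulk RNA, fewer cells with the transcript and less transcript per cell cannot be told apart.

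**Figure D1:**
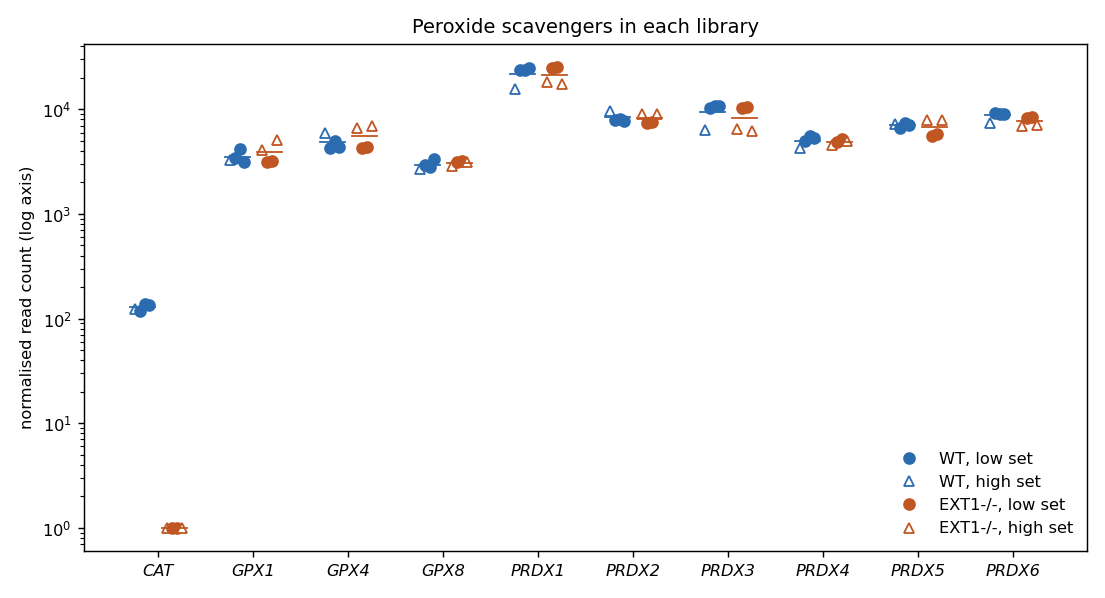
Normalised read counts (log axis) of the 10 peroxide scavenger genes in each of the 8 libraries, blue for WT and orange for EXT1-/-. Circles are libraries of the low set, open triangles those of the high set, and short lines are group means. CAT falls from 118 to 139 in WT to 1 in every EXT1-/- library, while the ranges of the groups overlap for the other 9 genes.

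The other peroxide scavengers were abundant in both genotypes, and none of the 9 passed the test of the genotype (limma, Benjamini-Hochberg adjusted over all 15811 genes). Adjusted p values ran from 0.195 to 0.904, and 0 of the 9 had an unadjusted p below 0.05. Across all genes 32.0% passed, 15.2% as higher and 16.8% as lower. The authors' deposited table also calls 0 of the 9 at an FDR of 0.05, against 26.2% of all genes (12.6% higher, 13.6% lower). The groups overlapped for all 9, whereas they did not overlap for 33.5% of all genes. Fold changes lay between -0.20 and 0.17 on the log2(value + 1) scale, 3 above and 6 below 0, with a median of -0.03 (0.01 over all genes). An absolute difference larger than the largest of these was seen in 52.3% of all genes. The lowest bound of the 95% intervals of the 9 was -39.7% (PRDX3) and the highest 49.5% (GPX4). Differences of that size are not excluded by this fit for those genes. Intervals of the others were narrower, such as -7.23 to 17.6% for GPX8.

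Levels per kilobase of exon put the members in an order that differed little between genotypes. In WT cells PRDX1 was highest, at 17506 ± 3408 normalised counts per kb (SD, n = 4), followed by PRDX2 at 8497 ± 852 and PRDX5 at 7961 ± 332, whose ranges overlapped. PRDX3 (5988 ± 1310), PRDX6 (4983 ± 502), GPX4 (3962 ± 607) and PRDX4 (3690 ± 417) formed a chain in which each overlapped the next. GPX1 (2453 ± 315) and GPX8 (829.0 ± 80.2) stood apart below them. CAT came last at 56.0 ± 4.39 in WT and 0.434 in EXT1-/- libraries. In EXT1-/- cells PRDX6 and GPX4 changed places at 4402 ± 456 and 4518 ± 1154, which overlap, and the rest of the order was as in WT. Exon lengths were the union over GENCODE 29 basic transcripts, which makes genes with long or many transcripts appear lower.

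Among the cytosolic peroxiredoxins, PRDX1 (chromosome 1, 45511036 to 45523047, minus strand), which passes electrons from thioredoxin to peroxide, read 15547, 23687, 23824 and 24613 in the WT libraries (in replicate order, here and below) and 18115, 24632, 25352 and 17315 in the EXT1-/- ones. The 3 low values are the 3 libraries of the high set, and the genotypes are mixed. The log2 fold change was -0.04 ± 0.18 (SE; limma, adjusted p 0.904), and with the library set as a term it turned to 0.10 ± 0.04 (adjusted p 0.0350), a rise of 7.41% with an interval of 1.63 to 13.5%. The low set alone gave 0.06 (adjusted p 0.209), and the high set alone, with 1 WT library and so no test, gave 0.19. PRDX2 (chromosome 19, 12796820 to 12801859, minus strand), its close relative, read 9635, 7977, 8120 and 7816 in WT and 9049, 7436, 7511 and 8948 in EXT1-/- libraries. Here the high set gave the high values, opposite to PRDX1. Its log2 fold change of -0.03 ± 0.09 (limma, adjusted p 0.852) became -0.09 ± 0.03 with the set as a term (adjusted p 0.0141) and was -0.09 in the low set (adjusted p 0.0504) and -0.10 in the high one. PRDX1 overlaps MMACHC on the other strand and PRDX2 lies within HOOK2 on the same strand, so both are uncertain to that extent, and whether strand was used in counting is not given in the sources used here.

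PRDX6 (chromosome 1, 173477266 to 173488807, plus strand), the peroxiredoxin with a single reactive cysteine, which also reduces peroxidised phospholipids, read 7418, 9315, 9096 and 9073 in WT and 6897, 8270, 8506 and 7156 in EXT1-/- libraries. Within each set every EXT1-/- value was below every WT value, although the pooled groups overlap. The log2 fold change was -0.18 ± 0.10 (SE; limma, adjusted p 0.195) and did not pass. It passed with the library set as a term (-0.11 ± 0.03, adjusted p 0.0109), a difference of -7.33% with an interval of -11.4 to -3.05%. It also passed in the low set (-0.13, limma, adjusted p 0.0161) and without WT replicate 1 (-0.26, adjusted p 0.0396), and the value within the high set was -0.08.

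The mitochondrial and secretory-pathway peroxiredoxins showed no genotype difference that held over the fits. PRDX3 (chromosome 10, 119167703 to 119178833, minus strand), the mitochondrial form, read 6405, 10395, 10641 and 10667 in WT and 6440, 10280, 10498 and 6178 in EXT1-/- libraries. Libraries of the same set were nearly equal whatever their genotype. Its fold change was -0.20 ± 0.23 on the log2 scale (limma, adjusted p 0.540), and with the set as a term it was -0.02 ± 0.03 (adjusted p 0.499), an interval of -5.80 to 2.73%. PRDX4 (chromosome X, 23664262 to 23686399, plus strand), of the endoplasmic reticulum, ranged from 4244 to 5535 in WT and from 4548 to 5165 in EXT1-/- libraries, with a log2 fold change of -0.03 ± 0.09 (adjusted p 0.796, limma), 0.01 with the set term. PRDX5 (chromosome 11, 64318088 to 64321811, plus strand), found in mitochondria, peroxisomes and cytosol, read 7308, 6690, 7329 and 7108 in WT and 7880, 5580, 5844 and 7959 in EXT1-/- libraries. The EXT1-/- values split by set, the high pair above all WT libraries and the low pair below them. Its log2 fold change was -0.08 ± 0.12 (limma, adjusted p 0.660) over 8 libraries, -0.15 with the set term (adjusted p 0.117), -0.30 for the low set alone (limma, adjusted p 0.00212; -18.9%, interval -24.8 to -12.4%) and 0.12 in the high set.

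The glutathione peroxidases of the group also missed the threshold. GPX1 (chromosome 3, 49357171 to 49358600, minus strand), the common cytosolic selenoenzyme, read 3273, 3443, 4160 and 3156 in WT and 4073, 3128, 3172 and 5104 in EXT1-/- libraries, a log2 fold change of 0.12 ± 0.16 (limma, adjusted p 0.611). Among the EXT1-/- libraries the 2 of the high set carried the upper values, while the WT library of that set (3273) was not the highest of its group. With the set term the value for GPX1 was 0.06 (limma, adjusted p 0.756). The low set alone gave -0.18 (limma, adjusted p 0.205), and the high set alone, with 1 WT library and so no test, gave 0.48. GPX4 (chromosome 19, 1103926 to 1106791, plus strand), the selenoenzyme that reduces lipid peroxides in membranes and guards against ferroptosis, read 5911, 4312, 4958 and 4346 in WT and 6641, 4291, 4390 and 6944 in EXT1-/- libraries. Its highest values were those of the high set in both genotypes. Its log2 fold change was 0.17 ± 0.18 (limma, adjusted p 0.527), 0.03 with the set term (adjusted p 0.697) and -0.06 within the low set. GPX8 (chromosome 5, 55160118 to 55167071, plus strand), a membrane enzyme of the endoplasmic reticulum with cysteine in place of selenocysteine, ranged from 2684 to 3347 in WT and from 2867 to 3195 in EXT1-/- libraries. The log2 fold change of GPX8 was 0.06 ± 0.08 (adjusted p 0.563, limma), with an interval of -7.23 to 17.6%.

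**Figure D2:**
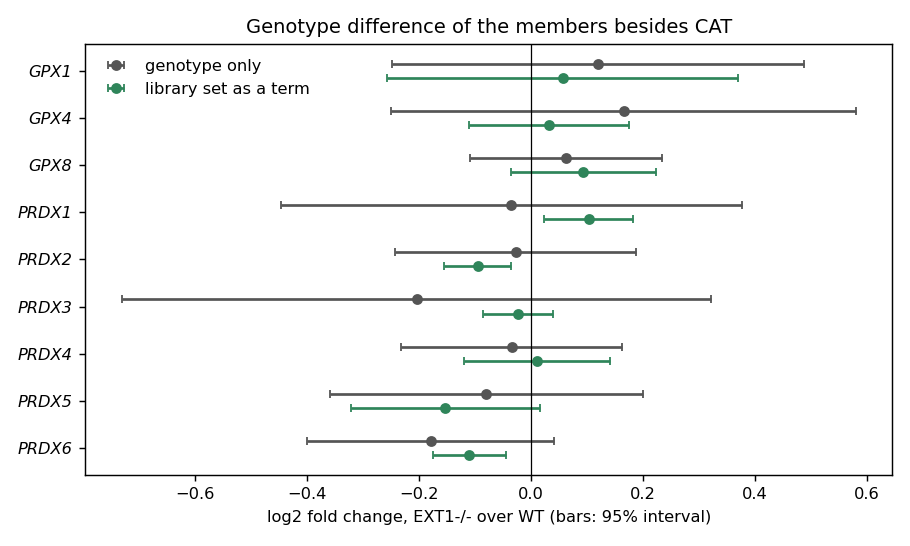
Log2 fold change of the 9 members besides CAT (EXT1-/- over WT, log2(value + 1) scale) with 95% intervals from limma, for genotype alone (grey) and with the library set as a term (green). Every grey interval crosses 0, and with the set term those of PRDX1, PRDX2 and PRDX6 do not.

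With the library set in the model, 3 of the 9 genes passed (PRDX1 higher, PRDX2 and PRDX6 lower), where 51.8% of all genes did (26.2% higher, 25.6% lower). In the low set 2 passed (PRDX5 and PRDX6, both lower), where 45.0% of all genes did (20.9% higher, 24.1% lower). With the set term the largest absolute difference of the 9 was 0.15 on the log2 scale (PRDX5, lower). The lowest bound of the 95% intervals was then -20.0% (PRDX5) and the highest 29.2% (GPX1). In the low set alone PRDX5 was further from 0, at -0.30, while within the high set it was 0.12. The library set moved these genes more than the genotype. High minus low set was -0.72 ± 0.03 for PRDX3, -0.55 ± 0.04 for PRDX1, -0.28 ± 0.03 for PRDX6, 0.53 ± 0.07 for GPX4, 0.29 ± 0.08 for PRDX5 and 0.27 ± 0.03 for PRDX2 (log2, SE). All 9 had a larger set term than genotype term, as 48.9% of all genes did. The values of the sets did not overlap in 5 of the 9, and in 31.4% of all genes. These are descriptions of libraries grouped by their mitochondrial share, not a comparison of the study.

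**Figure D3:**
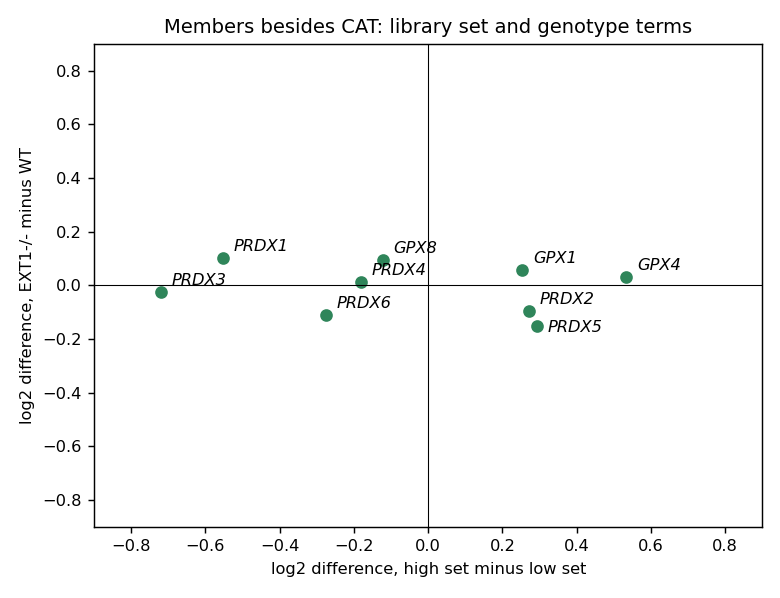
The same 9 genes by 2 terms of one limma model: high minus low library set (x axis, log2) and EXT1-/- minus WT (y axis, log2), on equal axes. Points spread from -0.72 to 0.53 along the set axis and stay within -0.15 to 0.10 along the genotype axis.

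Among other peroxidases and the superoxide dismutases, GPX3, GPX7 and SOD1 were lower and PXDN, SOD2 and CCS did not pass. Of 10 further glutathione and heme peroxidases 3 were in the table, and 2 of them fell and none rose, with a median log2 fold change of -0.28 (PXDN, adjusted p 0.0861, limma, missed the threshold). Beside such counts stand the shares over all genes, 15.2% higher and 16.8% lower. GPX7, a relative of GPX8 in the endoplasmic reticulum, read 677, 640, 648 and 580 in WT and 548, 428, 439 and 542 in EXT1-/- libraries, without overlap (log2 fold change -0.39 ± 0.10, limma, adjusted p 0.0190). GPX3, the secreted selenoenzyme, fell from 562.8 ± 40.3 to 464.8 ± 48.6 (SD, n = 4 each; -0.28 ± 0.09, adjusted p 0.0460, limma; 0.0620 with replicate number as a block). That count of 2 was 0 without WT replicate 2 or 3, and 1 under each of the other omissions except those of WT replicate 4 and EXT1-/- replicate 1. It was 3 with the set term, under which 51.8% of all genes passed. Of the superoxide dismutase genes, SOD1, the cytosolic enzyme, fell from 6344 ± 145 to 5344 ± 203 (-0.25 ± 0.05; adjusted p 0.00445, limma), while SOD2, the mitochondrial enzyme, and CCS, the copper chaperone of SOD1, did not pass (adjusted p 0.436 and 0.244).

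Of 11 genes of the thioredoxin and sulfiredoxin system 5 were called lower, none higher and 6 missed the threshold (median of all 11 -0.15). Over all genes 16.8% were lower and 15.2% higher. TXNRD2, 1 of the 5, is in the table only through its WT values, since every gene of the table reaches at least 0.977 CPM in 2 libraries and TXNRD2 stays below that in EXT1-/- cells. It therefore had to differ, and its values are given with no test. Without it the genes called lower were TXN, TXNRD3, TXNIP and SESN1. TXNRD2, the mitochondrial thioredoxin reductase that recharges the donor of PRDX3, read 134, 134, 119 and 105 in WT and 15, 20, 20 and 15 in EXT1-/- libraries. The groups lay far apart in both sets, and the log2 fold change was -2.75, -2.51 in the low set and -3.08 in the high one. The reads of TXNRD2 are uncertain, since it overlaps a gene of the table on the other strand. So are those of ERO1A, PIPOX, MAFF, EPHX1 and PSTK, named further on, for the same reason. PEX19, also named further on, overlaps AL139011.2, a gene of the table on the minus strand, and is uncertain to that extent. TXNRD3 fell from 376.2 ± 54.1 to 177.5 ± 36.1 (SD, n = 4 each; -1.09 ± 0.16, adjusted p 0.00102, limma), while TXNRD1, the cytosolic reductase, was at 6847 ± 954 and 7007 ± 1033 and did not pass (adjusted p 0.873; with the set term it was higher, adjusted p 0.0188). TXNIP, which binds and inhibits thioredoxin, read 2345 to 2572 in WT and 1033 to 1273 in EXT1-/- libraries (-1.11 ± 0.07, adjusted p 8.99e-06, limma). TXN, thioredoxin itself, fell from 7944 ± 828 to 6250 ± 310 (-0.34 ± 0.08, adjusted p 0.0119, limma).

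With genotype alone 2 of 16 glutathione genes fell, none rose and the median was -0.05. Over all genes 16.8% were lower and 15.2% higher in that fit. Those 2 were GSR, which regenerates glutathione (2957 ± 164 to 2312 ± 138, SD, n = 4 each; -0.36 ± 0.06 on the log2 scale, limma, adjusted p 0.00311), and GSS, which completes its synthesis (-0.18 ± 0.05, adjusted p 0.0244). The count ranged from 1 to 4 when single libraries were left out (4 without WT replicate 1, and 1 without WT replicate 2, 3 or 4 or EXT1-/- replicate 2 or 3). It was 8 with the set term (3 higher, 5 lower) and 6 within the low set. Over all genes 51.8% passed with the set term (26.2% higher, 25.6% lower) and 45.0% within the low set. Selenoprotein synthesis, on which GPX1, GPX4 and the thioredoxin reductases depend, had 3 genes of 10 lower and 1 higher (median -0.04), and 4 higher and 3 lower with the set term. SEPHS1, a relative of the selenophosphate synthetase, read 10149 to 11128 in WT and 5787 to 6473 in EXT1-/- libraries (-0.82 ± 0.05; limma, adjusted p 1.08e-05). LRP8, a receptor for the selenium carrier selenoprotein P, fell by 0.76 ± 0.05 on the log2 scale (adjusted p 7.30e-06, limma), and PSTK, a kinase of the selenocysteine pathway, by 0.59 ± 0.09 (adjusted p 0.000993). SCLY, which frees selenium from selenocysteine, rose by 0.40 ± 0.13 (adjusted p 0.0418).

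**Figure D4:**
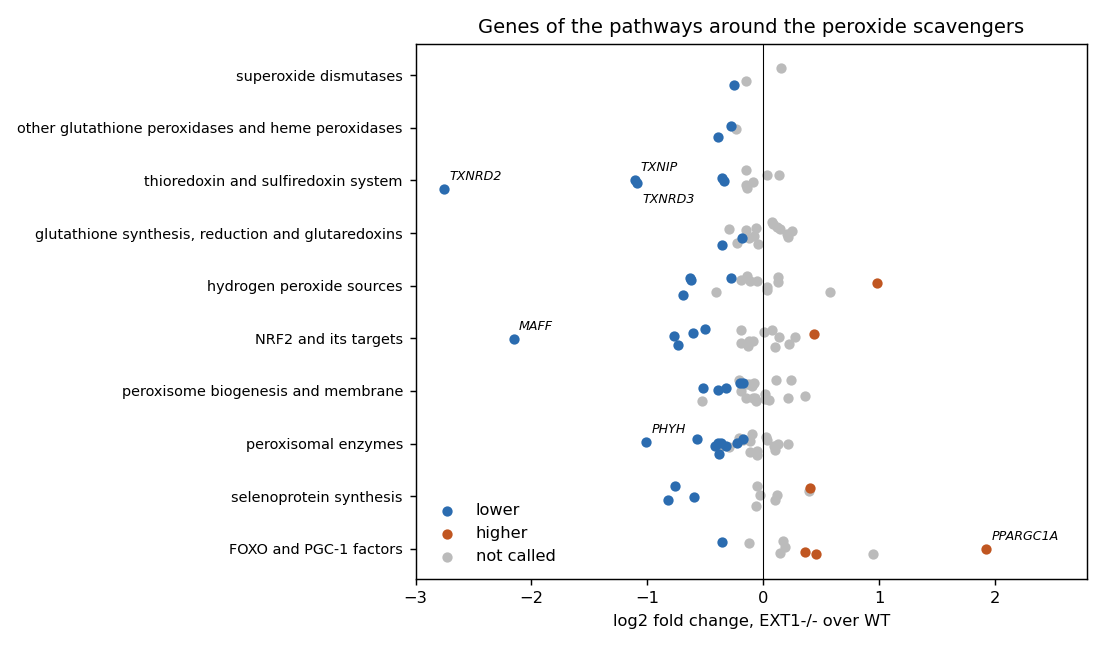
Log2 fold change (EXT1-/- over WT) of the listed genes around the peroxide scavengers, 1 point per gene, with blue for lower, orange for higher and grey for genes that did not pass limma's test; vertical scatter within a list has no meaning. Genes with an absolute value of at least 1 are named, and TXNRD2 lies farthest to the left at -2.75. TXNRD2, CYBB and PPARGC1A are coloured by the fit although each is in the table through 1 genotype only.

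Peroxisomes, the compartment of catalase, were represented by 2 lists, and in both the genes that passed with genotype alone were lower. Among all genes 16.8% passed as lower and 15.2% as higher. These shares were 25.6% and 26.2% with the set term, and 24.1% and 20.9% within the low set. Of 24 peroxisomal enzymes 9 fell, none rose and 15 did not pass (median -0.17), and with the set term 11 were lower and 2 higher (12 and 2 within the low set). PHYH, which starts the breakdown of phytanic acid, read 741 to 951 in WT and 366 to 479 in EXT1-/- libraries (log2 fold change -1.01 ± 0.11; limma, adjusted p 0.000145). HSD17B4, the bifunctional enzyme of peroxisomal fatty acid oxidation, fell by 0.57 ± 0.08 on the log2 scale (adjusted p 0.000652, limma), and EPHX2, an epoxide hydrolase, by 0.42 ± 0.06 (adjusted p 0.00100). For peroxisome biogenesis and membrane proteins 5 of 23 were lower and none higher (median -0.10, limma), and without single libraries that count went down to 2 (without WT replicate 2 or 4, or EXT1-/- replicate 1 or 4) or 3 (without WT replicate 3). PEX19, which escorts membrane proteins to peroxisomes, changed from 5065 ± 121 to 4416 ± 69.7 (SD, n = 4 each; -0.20 ± 0.04, adjusted p 0.00869, limma). PEX6, an ATPase that recycles the import receptor, fell by 0.32 ± 0.08 on the log2 scale (adjusted p 0.0115), and PEX7, the import receptor that PHYH uses, by 0.52 ± 0.15 (adjusted p 0.0253). The import receptor of catalase itself, PEX5, was at 1673 ± 243 and 1446 ± 226 and missed the threshold (adjusted p 0.285; lower with the set term, adjusted p 0.0300).

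Of 15 measured genes for sources of hydrogen peroxide 4 were called lower and 1 higher (median -0.11). Over all genes 16.8% were lower and 15.2% higher. The 1 higher gene is CYBB, which is in the table only through its EXT1-/- values and so had to differ. With the set term 4 were lower and 2 higher, where 25.6% and 26.2% of all genes were. CYBA was then the other higher gene (0.48, limma, adjusted p 0.0431). With genotype alone CYBA did not pass (0.57, limma, adjusted p 0.0668). ERO1A, an oxidase of the endoplasmic reticulum that makes peroxide while forming disulfides, read 2684 to 2872 in WT and 1713 to 1843 in EXT1-/- libraries (log2 fold change -0.64 ± 0.05; limma, adjusted p 2.29e-05). AOX1, aldehyde oxidase, fell by 0.70 ± 0.11 on the log2 scale (adjusted p 0.00163, limma) and PIPOX, a peroxisomal oxidase, by 0.62 ± 0.14 (adjusted p 0.00793). CYBB, the catalytic subunit of the phagocyte NADPH oxidase, was at 18.2 ± 2.06 in WT and 37.5 ± 7.85 in EXT1-/- libraries, a mean level below 1 CPM (38.9 normalised counts) in both groups.

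Regulators known to act on antioxidant genes were split. Of 17 genes in the list of NRF2 and its targets 5 fell and 1 rose (median -0.12), where 16.8% of all genes were lower and 15.2% higher. NFE2L2, which encodes NRF2, and KEAP1, its inhibitor, did not pass (adjusted p 0.415 and 0.216, limma), nor did the targets NQO1 (0.334) and HMOX1 (0.164). In the low set alone KEAP1, NQO1 and HMOX1 were lower (limma, adjusted p 0.0435, 0.0189 and 0.0404). The list then had 9 lower and 0 higher, where 24.1% of all genes were lower and 20.9% higher. MAFF, a small MAF protein that pairs with NRF2, fell from 185.0 ± 10.7 to 41.2 ± 7.46 (SD, n = 4 each; -2.15 ± 0.15 on the log2 scale, limma, adjusted p 1.15e-05), whereas its relative MAFK rose by 0.44 ± 0.11 (adjusted p 0.0177, and 0.0566 for the low set). TKT, an enzyme of the pentose phosphate pathway, fell by 0.77 ± 0.10 (adjusted p 0.000368), and EPHX1 by 0.50 ± 0.10 (adjusted p 0.00469). Among 9 FOXO and PGC-1 factors 3 were called higher and 1 lower (median 0.19), beside the same shares of 15.2% and 16.8% over all genes. PPARGC1A, 1 of the 3, is in the table only through its EXT1-/- values, so it had to differ and is described with no test. FOXO3, which can activate CAT, fell from 1212 ± 29.6 to 948.5 ± 33.6 (-0.35 ± 0.05, adjusted p 0.00102, limma). PPARGC1A, which encodes the coactivator PGC-1α of mitochondrial and antioxidant genes, read 27, 31, 29 and 32 in WT and 110, 117, 120 and 115 in EXT1-/- libraries, a log2 difference of 1.92. PPARA and PPARGC1B rose by 0.46 ± 0.07 and 0.36 ± 0.11 (adjusted p 0.00147 and 0.0384).

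The genes beside CAT did not share its loss. Of the 10 nearest genes of the table, 5 on each side, 2 were higher, 1 was lower and 7 did not pass. Over all genes 15.2% were higher and 16.8% lower. With the set term 5 of these neighbours passed, where 51.8% of all genes did. The closest, ABTB2, whose gene ends 80.9 kb from CAT, was at 196.0 ± 16.5 in WT and 214.8 ± 32.8 in EXT1-/- cells (log2 fold change 0.12 ± 0.12, adjusted p 0.484, limma), and AC087783.2, at 237.5 kb on the other side, had a value of 0.20 ± 0.12 (adjusted p 0.245). NAT10 and CAPRIN1, 291.3 and 337.8 kb away, had values of -0.12 and -0.07 and did not pass (adjusted p 0.163 and 0.323), although both did with the set term (-0.16 and -0.10, adjusted p 0.00295 and 0.00891). APIP and PDHX, which overlap each other, and FBXO3 did not pass either (adjusted p 0.405, 0.293 and 0.857). LMO2, a transcription cofactor of blood formation 546.6 kb away, rose from 62.0 ± 15.9 to 102.2 ± 17.1 (adjusted p 0.0245, limma). CD44, a hyaluronan receptor at 666.8 kb, fell by 1.06 ± 0.10 on the log2 scale (adjusted p 8.75e-05), and SLC1A2, a glutamate transporter at 779.1 kb, rose by 2.10 ± 0.10 (adjusted p 1.80e-06).

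**Figure D5:**
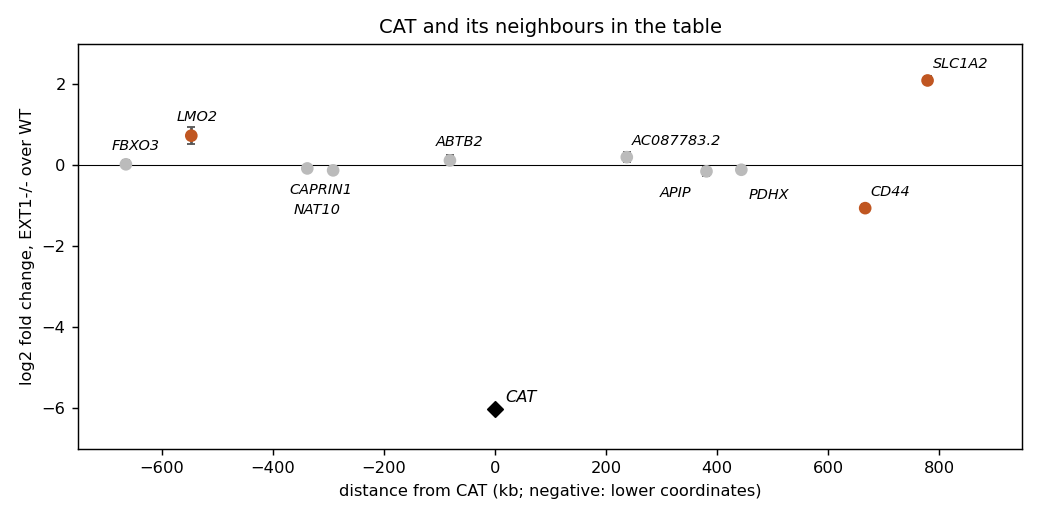
Log2 fold change (EXT1-/- over WT, bars: SE) of the 5 nearest genes of the table on each side of CAT against their distance from it in kb; orange genes passed limma's test and CAT is the black diamond, untested. The genes nearest to CAT lie close to 0, and the 3 that passed are LMO2, CD44 and SLC1A2, at 546.6 to 779.1 kb.

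The pattern of CAT over the libraries was shared by few genes. Likeness was the root-mean-square difference between log2(value + 1) profiles, each centred on its own mean over the 8 libraries, among protein-coding genes. The 5 nearest were ZNF596 (0.16), C9orf64 (0.43), IRAK4 (0.48), ZNF717 (0.64) and EGR1 (0.81). C9orf64, an enzyme that salvages queuine, read 97, 97, 90 and 98 in WT and 1, 1, 2 and 2 in EXT1-/- libraries, and IRAK4, a kinase of Toll-like receptor signalling, 123 to 132 and 0 to 1. EGR1, an early response gene of ERK signalling, differs from these in that it was still read at 20 to 41 in EXT1-/- libraries, against 593 to 873 in WT. Of 15084 genes with a WT mean of at least 1 CPM, 14 had a sum of at most 10 in the EXT1-/- libraries, CAT among them. This choice used the measured contrast, so it describes the table and has no test.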

How the data were processed

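The members and the gene lists were chosen with earlier results of these data known. Libraries were made with a stranded total RNA kit per the labels' protocols, and STAR, RSEM and edgeR with GRCh38.p10 are named in the submitters' processing notes, without versions. The authors deposited 1 table with a normalised signal per library in whole numbers, called normalised read counts here: trimmed-mean effective library sizes were 38891466 to 38902443 in all 8 libraries, so these are not raw counts and no count model was run. Further columns that the authors deposited hold their own comparison: the FDR and p-value of each gene, a score from a likelihood ratio test, and log2 values of the fold change and mean CPM. Columns of other samples numbered 0. Here log2(value + 1) was modelled on genotype alone in limma 3.58.1 (R 4.3.3), with the trended prior variance, and p-values were adjusted by Benjamini-Hochberg over 15811 genes (threshold 0.05). The fit was tested on simulated data. No gene was filtered out. Library sets were divided at the largest gap in mitochondrial share. Coordinates and exon lengths come from GENCODE 29. Named genes were all members, up to 3 per list and direction with the smallest adjusted p, the 5 neighbours on each side of CAT and the 5 genes with the nearest pattern. Single further members that did not pass, and TXN and SESN1, which did, were chosen after their values were seen. The depth in reads is unknown. Alternatives were other pseudocounts, filters, scalings and fits, a replicate block, the library set and each library left out.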

Additional observations from a re-analysis of the deposited data

Results flagged for a closer look

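In WT cells, 1 library stood apart from the other 3 in 4 of the members, each time WT replicate 1, the single WT library of the high mitochondrial set. Its gap to the nearest other library, as a share of the range of the 4, was 0.936 for PRDX3 (lowest), 0.898 for PRDX1 (lowest), 0.872 for PRDX6 (lowest) and 0.833 for PRDX2 (highest), each above Dixon's 95% critical value for 4 samples. No member was beyond it in the EXT1-/- libraries, where the sets hold 2 libraries each. Chance alone flags about 1 in 20 groups, and 19 groups of values were examined.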

How the results depend on the processing

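Over 22 alternatives (13 for CAT) the number of genes called (5063) stayed within 1.5 times except with the library set as a term (8195), and ranged from 3721 to 6041 when single libraries were left out. The count of members besides CAT that passed was 0, except 3 in the fit that includes the library set, 2 in the low set and 1 without WT replicate 1 (PRDX6); over all omissions of a library it was 0 to 1. The ratio of CAT stayed between 125.7 and 132.7 without single libraries. The ratio of group means was not computed with the set term, under which the fitted log2 fold change of CAT was -6.01, against -6.02 for genotype alone. Under the filter of 5 CPM in 4 libraries CAT is left out. Signs that turned were those of small differences: GPX1 (-0.18) and GPX4 (-0.0615) in the low set, PRDX1 with the set term (0.10) and in the low set (0.056), and PRDX4 with the set term (0.0111). Without single libraries the log2 fold change ran from -0.0233 to 0.21 for GPX1, -0.19 to 0.0585 for PRDX1, -0.0746 to 0.0411 for PRDX2, -0.11 to 0.0153 for PRDX4 and -0.16 to 0.0106 for PRDX5. The cause was not tested. With replicate number as a block 4934 genes and 0 members were called (PRDX6: adjusted p 0.0664, limma). Deviations of same-numbered libraries correlated at 0.78, 0.44, 0.26 and -0.65, and 1 of 4 WT libraries correlated best with its own number, so the numbers are not taken to pair the samples.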
